A study of Mus musculus with 12 samples.

Results

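AP-1 is a family of dimeric transcription factors, and 10 of its genes and close relatives are described here in bone marrow-derived macrophages (BMDMs) after activation of the energy sensor AMPK. They are *Fos*, *Fosb* and *Fosl2* of the FOS family, *Jun*, *Junb* and *Jund* of the JUN family, *Atf3* and *Batf3* of the ATF and BATF families, and the small MAF genes *Maff* and *Mafk*. They were taken by symbol from the 12960 genes of the deposited counts, where all 10 are listed. RNA was sequenced from BMDMs of WT mice and of AMPKβ1-/- mice, which lack the β1 subunit of AMPK in all cells, after 6 h with vehicle (0.1% DMSO) or with 10 μM PF-06409577 (PF), an activator that is selective for AMPK complexes holding β1. The 4 groups were WT vehicle, WT PF, AMPKβ1-/- vehicle and AMPKβ1-/- PF, with 3 libraries each. All cells came from marrow cultured with medium of L929 cells, a source of M-CSF, and no inflammatory stimulus is named in the labels. The age and sex of the marrow donors, and whether the libraries of a group came from separate animals, are not given in the sources used here, so p values measure the spread between libraries, which may be technical.

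The libraries held 8935609 to 14358180 counts assigned to genes. *Prkab1*, the gene of AMPKβ1, had at least 37.3 CPM (counts relative to library size, with TMM factors) in every WT library and at most 9.42 CPM in every AMPKβ1-/- library. All 8 macrophage markers were detected in each group, with a summed level of 25191 to 29681 CPM. Granulocyte and dendritic cell markers each summed to under 1.4 CPM in every library, of the 6 lymphoid markers 0 are among the counted genes, and the 6 fibroblast markers summed to 1.31 to 3.18 CPM in WT libraries and 2.59 to 10.4 CPM in AMPKβ1-/- libraries. The part of these fibroblast transcripts in the differences between genotypes was not tested. The libraries also differed in how counts followed the GC content of transcripts. The slope of log2 CPM against GC, relative to the mean library and per 10 points of GC, averaged 0.55 in WT vehicle, 0.16 in WT PF, -0.27 in AMPKβ1-/- vehicle and -0.44 in AMPKβ1-/- PF, so that it moved with both treatment and genotype. All 10 AP-1 genes have a GC content above the median of the tested genes, 50.9%. Values with this trend in GC and transcript length removed are therefore given for many of the named genes whose call or direction they change.

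FOS proteins do not form stable dimers among themselves and bind DNA as heterodimers with JUN proteins, whereas JUN proteins can also pair with each other. The dimers bind the AP-1 site or the related cAMP response element (CRE) at genes of proliferation, matrix turnover and inflammation. *Fos*, *Fosb*, *Jun*, *Junb*, *Atf3* and *Maff* belong to the immediate early or early response genes, whose transcripts are made within minutes of a stimulus through MAP kinases and factors such as SRF and CREB and are then quickly lost. In macrophages ATF3 is known as a brake on cytokine genes induced by Toll-like receptors, BATF3 is best known from dendritic cells, and the small MAF proteins lack a transactivation domain and pair with NRF2, BACH1 and other factors.

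The sequence upstream of the start is shown for *Fos* and *Jun*, whose levels moved apart in WT BMDMs and between the genotypes, and for the most abundant members per transcript length, *Atf3* and *Junb*. Each sequence is the 250 bases before the RefSeq start on GRCm38.p6, written 5′ to 3′ on the strand of the gene. Sites further upstream were not searched, so a motif absent from a window may still lie outside it. Capitals mark matches to the motifs searched on both strands, namely the CRE (TGACGTCA), its shorter core (TGACGT, which every CRE also holds), the AP-1 site (TGANTCA), the AP-1-like site TGACATCA, the TATA box (TATAAA) and the CArG box, which is the binding site of SRF.
*Fos*, chr12:85473640-85473889, plus strand: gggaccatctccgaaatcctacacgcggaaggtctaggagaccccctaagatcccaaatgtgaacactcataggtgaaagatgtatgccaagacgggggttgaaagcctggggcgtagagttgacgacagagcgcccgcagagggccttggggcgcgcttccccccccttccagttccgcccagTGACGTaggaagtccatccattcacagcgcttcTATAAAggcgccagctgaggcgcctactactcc
*Jun*, chr4:95052223-95052472, minus strand: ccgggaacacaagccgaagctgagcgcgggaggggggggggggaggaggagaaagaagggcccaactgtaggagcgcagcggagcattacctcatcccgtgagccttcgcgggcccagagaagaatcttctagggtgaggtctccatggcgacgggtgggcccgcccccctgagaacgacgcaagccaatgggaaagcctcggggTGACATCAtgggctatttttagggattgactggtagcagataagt
*Atf3*, chr1:191183334-191183583, minus strand: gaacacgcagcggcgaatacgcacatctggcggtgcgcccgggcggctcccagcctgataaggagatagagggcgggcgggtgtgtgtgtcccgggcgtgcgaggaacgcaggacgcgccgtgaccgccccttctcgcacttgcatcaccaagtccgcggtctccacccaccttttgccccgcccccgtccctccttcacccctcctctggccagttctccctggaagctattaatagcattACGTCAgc
*Junb*, chr8:84978749-84978998, minus strand: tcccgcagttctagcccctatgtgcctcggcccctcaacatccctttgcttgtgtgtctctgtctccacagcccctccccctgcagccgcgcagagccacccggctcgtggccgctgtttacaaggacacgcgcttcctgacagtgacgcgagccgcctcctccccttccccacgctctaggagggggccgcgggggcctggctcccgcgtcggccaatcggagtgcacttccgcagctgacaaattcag
The *Fos* window held TGACGT, which began 66 bases before the start, and a TATA box, which began 33 bases before it. The *Jun* window held TGACATCA from 45 bases before the start. In the *Atf3* window, which belongs to a start inside the annotated gene, the CRE core lay on the opposite strand at 8 bases before the start. No motif of this search was found in the *Junb* window, and none in those of *Fosb*, *Fosl2*, *Jund*, *Batf3* and *Mafk*. The *Jund* window, from 70697489 to 70697738, ends before the annotated gene, which starts at 70698949. The windows of *Fosb*, *Fosl2*, *Batf3* and *Mafk* also belong to starts inside the annotated gene. Of 3 RefSeq starts of *Maff*, 1 window held the full CRE and another TGACATCA, and both of these belong to starts inside the annotated gene. Among 32851 promoter windows of the same length, 6.47% held TGACGT, 1.55% the full CRE, 2.93% TGACATCA, 6.75% TGANTCA, 12.4% TATAAA and 1.47% a CArG box, so these matches are a description and not evidence of binding.

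Per transcript length, *Atf3*, *Junb* and *Jund* were the most abundant AP-1 transcripts of these BMDMs in every group. In WT vehicle libraries the level was 224 ± 5.59 CPM per kb for *Atf3*, 205 ± 12.4 for *Junb*, 163 ± 10.2 for *Jund*, 50.3 ± 5.89 for *Fos* and 31.8 ± 2.74 for *Jun* (SD, n = 3). *Mafk* followed with 22.3 ± 4.17 CPM per kb, and *Fosl2*, *Maff*, *Batf3* and *Fosb* lay between 2.76 and 0.267 CPM per kb. In this group no library of a gene reached the range of the next gene in the order. These ranges hold the spread between libraries only. They do not hold error from the length used, the mean of the annotated coding transcripts, or from the GC trend. The order was the same in both AMPKβ1-/- groups, although there the ranges of *Maff* and *Batf3* met, and with PF also those of *Atf3* and *Junb*. In WT PF libraries *Jun*, at 37.1 ± 1.67 CPM per kb, stood above *Fos*, at 33.1 ± 1.57 CPM per kb, with no overlap, while the ranges of *Junb* and *Jund* met, as did those of *Fosl2* and *Maff* and of *Maff* and *Batf3*. As a share of the summed level of the 10 genes per kb, *Fos* made up 7.16% in WT vehicle, 5.08% in WT PF, 13.7% in AMPKβ1-/- vehicle and 14.2% in AMPKβ1-/- PF. The summed level itself was 702 ± 35.9, 658 ± 72.3, 617 ± 7.40 and 630 ± 37.6 CPM per kb in the same order (SD, n = 3), so the share of *Fos* moved more than the sum. Shares and sums still carry the GC and length trend of each library, which was not removed from them. In bulk RNA a lower level in fewer cells and a lower level in each cell cannot be told apart, which holds for all values below.

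**Figure D1:**
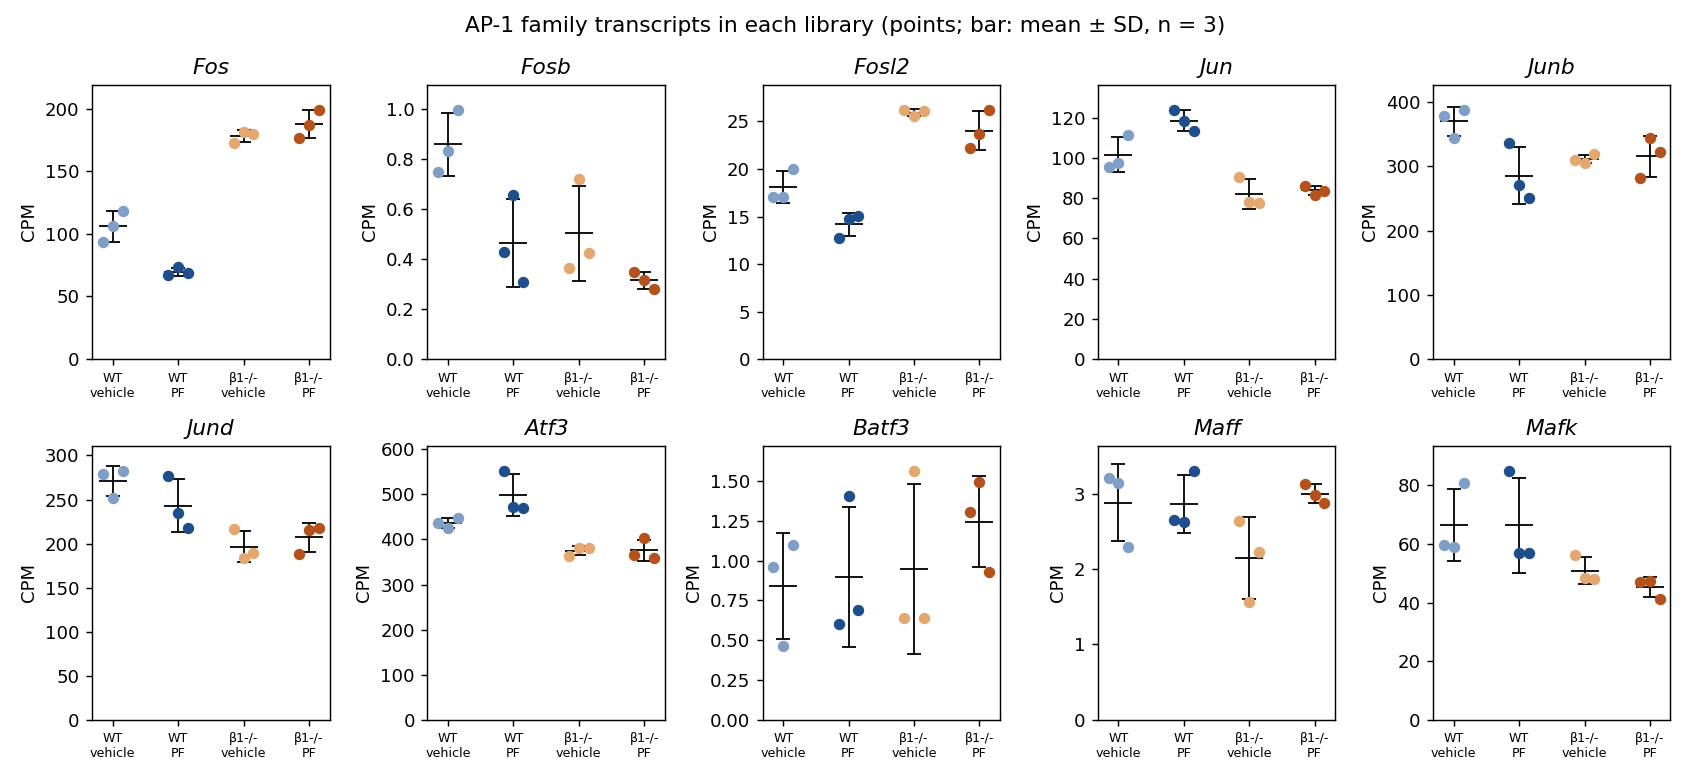
CPM of the 10 AP-1 family transcripts in each of the 12 libraries. Points are single libraries, black bars the mean ± SD of 3 libraries, and each vertical axis starts at 0. *Fos* was lowest in WT PF (67.0 to 73.4 CPM) and highest in the AMPKβ1-/- groups (173 to 199 CPM), while *Fosb* and *Batf3* stayed under 1.6 CPM in every library.

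In WT BMDMs PF was followed by lower *Fos* and *Junb* transcripts, and 0 of the 9 tested AP-1 genes were called higher. Of these results only the fall of *Fos* held in every alternative setting. *Fosb* did not pass the filter on low counts and was not tested. A gene was called at an adjusted p below 0.05 from edgeR's quasi-likelihood test over all 10822 tested genes. The 2 calls among 9 genes stand beside 15.9% of all tested genes called in this comparison, of which 8.95% were lower and 6.99% higher, so that 2 of 9 is close to the background. The median log2 fold change was -0.0027 over the 9 genes and 0.0048 over all tested genes. In 5 of the 9 the libraries of the groups did not overlap, as in 32.2% of all tested genes. None of the AP-1 genes passed a log2 fold change of 0.8 in either direction, which 1.52% of all tested genes passed together with the adjusted p. With the GC and length trend removed *Junb* was not called, and *Jun* and *Atf3* were called higher, beside 7.58% of all tested genes called. *Jun* and *Atf3* were also called higher with library size alone in place of TMM, beside 15.1%.

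*Fos*, on chromosome 12 from 85473890 to 85477273, encodes the founding FOS protein c-Fos and had the largest PF response among the 9 tested AP-1 genes. It was at 93.3, 107 and 118 CPM in the WT vehicle libraries and at 67.0, 73.4 and 68.7 CPM in the WT PF libraries, from 781 to 1187 counts a library. Every PF library lay below every vehicle library. On the log2 scale *Fos* fell by 0.61 (SE 0.088, adjusted p = 0.00121 from edgeR). It stayed lower and called in each of the 21 alternative settings tried, with changes of -0.69 to -0.52 and adjusted p values up to 0.0172, among them the removal of the GC and length trend (-0.55, adjusted p = 0.00028).

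The level of *Fos* did not fall with PF in AMPKβ1-/- BMDMs. It was at 173, 182 and 180 CPM with vehicle and at 177, 187 and 199 CPM with PF, so the ranges overlapped. The PF response was 0.074 (SE 0.085, adjusted p = 0.982), and its 95% interval of -0.11 to 0.26 does not include the response of WT BMDMs. Tested as an interaction, the WT response was lower than the AMPKβ1-/- response by 0.68 on the log2 scale (SE 0.12, adjusted p = 0.0261 from edgeR). *Fos* was the only one of the 9 AP-1 genes with a called interaction, beside 0.416% of all tested genes. This call was lost in 9 of 20 alternative settings, with adjusted p values up to 0.0985, although the difference stayed between -0.76 and -0.60 in all of them. The settings were library size alone (adjusted p = 0.0686) and the fits that left out library 2 of WT vehicle, library 2 or 3 of WT PF, library 2 or 3 of AMPKβ1-/- vehicle, or any 1 of the 3 AMPKβ1-/- PF libraries. With the GC and length trend removed the interaction was -0.64 (adjusted p = 0.00748).

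The other FOS genes were less abundant. *Fosl2*, on chromosome 5 from 32135801 to 32157842, encodes Fra-2, a FOS protein of slower and longer induction. It was at 17.1, 17.1 and 20.005 CPM with vehicle and at 12.8, 14.7 and 15.1 CPM with PF in WT BMDMs. The groups did not overlap, but the log2 fold change of -0.35 (SE 0.12) had an adjusted p of 0.0521 from edgeR and was not called. It was called without WT vehicle library 2 (adjusted p = 0.0495), and without the GC and length trend it was -0.20 with an adjusted p of 0.253. In AMPKβ1-/- BMDMs the *Fosl2* response was -0.11 (95% interval -0.34 to 0.12), and its interaction of -0.24 (adjusted p = 0.507) was not called. *Fosb*, on chromosome 7 from 19302696 to 19310051, had 7, 9 and 10 counts in WT vehicle, 5, 7 and 4 in WT PF, 4, 11 and 4 in AMPKβ1-/- vehicle and 4, 4 and 3 in AMPKβ1-/- PF. The lowest of these equals the 3 counts that a listed 0 would still allow in a library, a floor that covers counting error only. In CPM the WT vehicle libraries (0.748 to 0.995) lay above the WT PF (0.308 to 0.655) and AMPKβ1-/- vehicle libraries (0.365 to 0.717) without overlap. In the fit with no filter on low counts *Fosb* was at -0.89 with PF in WT (adjusted p = 0.197 from edgeR) and at -0.70 between the vehicle groups (adjusted p = 0.206), and neither was called.

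The JUN genes did not move together with PF in WT BMDMs. *Junb*, on chromosome 8 from 84974484 to 84978718, encodes a JUN protein that can dampen c-Jun activity. It was at 378, 345 and 388 CPM with vehicle and 336, 270 and 250 CPM with PF, without overlap. The fall of 0.38 on the log2 scale (SE 0.10, adjusted p = 0.0256 from edgeR) was called. It was not called in 6 of 21 settings. These were the fit to the 6 WT libraries alone (adjusted p = 0.082), the fits that left out library 1 or 3 of WT vehicle or library 2 or 3 of WT PF (adjusted p from 0.0767 to 0.137), and the removal of the GC and length trend, which left -0.11 with an adjusted p of 0.301. The *Junb* interaction of -0.39 (adjusted p = 0.241) was called only in the fit that left out library 1 of WT PF (-0.53, adjusted p = 0.0355). *Junb* holds 62.6% GC, the third highest value among the 10 genes.

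*Jun*, on chromosome 4 from 95049034 to 95052222, encodes c-Jun. Its levels were 95.5, 97.6 and 112 CPM with vehicle and 124, 118 and 113 CPM with PF in WT BMDMs, so that every PF library was above every vehicle library, by a small margin. The log2 fold change of 0.22 (SE 0.085) missed the threshold with an adjusted p of 0.0809 from edgeR. With library size alone it was 0.30 (adjusted p = 0.0304), with DESeq2 0.24 (adjusted p = 0.0488), and once the GC and length trend was removed 0.42 (adjusted p = 0.000361). In this last setting the *Jun* interaction was 0.36 with an adjusted p of 0.0486, against 0.19 and 0.487 with the counts as deposited. Without AMPKβ1 *Jun* was at 90.4, 78.0 and 77.5 CPM with vehicle and 86.0, 81.6 and 83.7 CPM with PF, a response of 0.031 (95% interval -0.15 to 0.21). *Jund*, on chromosome 8 from 70698949 to 70700616, encodes a JUN protein that is made steadily rather than induced. It was at 279, 252 and 283 CPM with vehicle and 277, 234 and 218 CPM with PF in WT, and these ranges overlapped. The *Jund* response of -0.16 (SE 0.098, adjusted p = 0.256 from edgeR) was not called, was called without WT PF library 1 (-0.26, adjusted p = 0.049), and turned to 0.054 after removal of the GC and length trend.

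**Figure D2:**
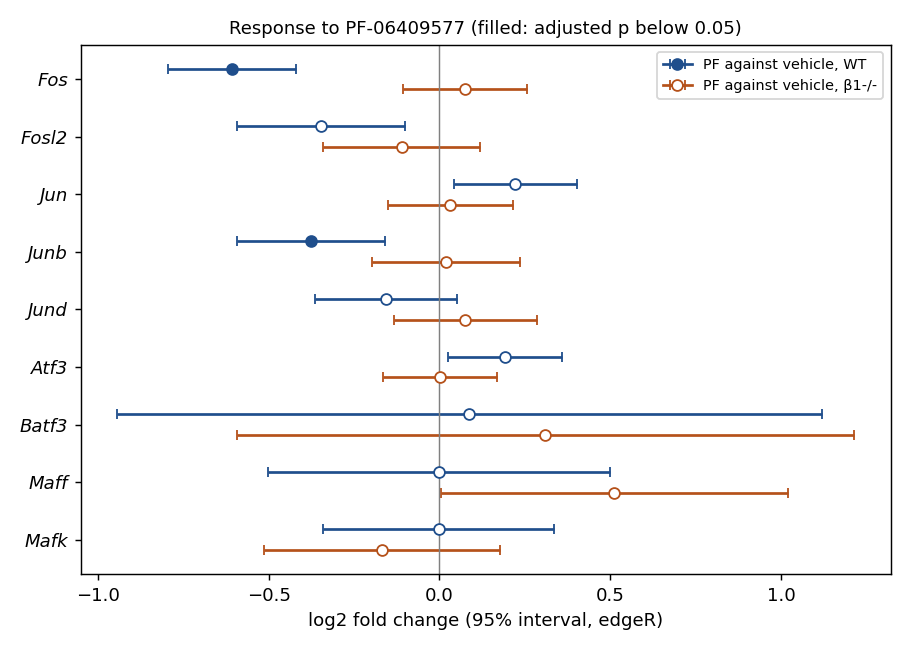
Log2 fold change of PF against vehicle for the 9 tested AP-1 genes in WT (blue) and AMPKβ1-/- BMDMs (orange), from edgeR, with 95% intervals. Filled points have an adjusted p below 0.05. In WT the points of *Fos* (-0.61) and *Junb* (-0.38) are filled, and in AMPKβ1-/- BMDMs every point is open.

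*Atf3*, on chromosome 1 from 191170296 to 191218039, was the most abundant of the 10 transcripts in CPM as well as per kb. In WT BMDMs it was at 436, 425 and 447 CPM with vehicle and at 553, 473 and 469 CPM with PF, without overlap. This difference of 0.19 on the log2 scale (SE 0.078, edgeR adjusted p = 0.0962) was not called. It was called with library size alone (0.27, adjusted p = 0.0222) and after removal of the GC and length trend (0.21, adjusted p = 0.0457). *Atf3* in AMPKβ1-/- BMDMs was at 363, 381 and 381 CPM with vehicle and at 365, 403 and 359 CPM with PF. Its response there was 0.0028 (95% interval -0.16 to 0.17). *Batf3*, also on chromosome 1 from 191097847 to 191108945, had 5 to 24 counts in a library and a log2 fold change in WT of 0.088 with a 95% interval of -0.94 to 1.118, which leaves room for a large change in either direction.

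The small MAF genes gave no call with PF. *Mafk*, on chromosome 5 from 139791513 to 139802653, was at 59.8, 58.8 and 80.7 CPM with vehicle and at 85.0, 57.0 and 56.9 CPM with PF in WT BMDMs. A single library of each group, vehicle library 3 and PF library 1, stood above the other two, and the fitted response was -0.0027 (95% interval -0.34 to 0.34). *Maff*, on chromosome 15 from 79346621 to 79359076, had 21 to 43 counts in a library and a WT response of -0.0013 (95% interval -0.50 to 0.50). The sign of both responses changed between settings. In AMPKβ1-/- BMDMs *Maff* was at 2.64, 1.57 and 2.23 CPM with vehicle and at 3.14, 2.98 and 2.88 CPM with PF, without overlap, as for *Mafk* with lower levels and for 14.5% of all tested genes. The *Maff* response of 0.51 (SE 0.24) had an adjusted p of 0.982 from edgeR and was the only one of the 9 in AMPKβ1-/- BMDMs with an unadjusted p below 0.05, which 4.98% of all tested genes reached. No AP-1 gene was called with PF in AMPKβ1-/- BMDMs (0 of 9), beside 0.0554% of all tested genes. DESeq2 and limma-voom also called 0 of them, beside 0.453% and 0.249% of all tested genes.

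With vehicle, *Fos* and *Fosl2* were higher in AMPKβ1-/- than in WT BMDMs and *Jun*, *Junb* and *Jund* were lower, although the call of *Junb* held in 7 of 21 alternative settings only. In this comparison 7 of the 9 tested AP-1 genes were called, beside 59.7% of all tested genes, so that most genes of any kind were called here. Called higher were *Fos* and *Fosl2*, as were 29.7% of all tested genes, and called lower were *Jun*, *Junb*, *Jund*, *Atf3* and *Mafk*, as were 30% of all tested genes. The same 7 genes had groups that did not overlap, as had 62.9% of all tested genes. The median log2 fold change was -0.25 over the 9 genes and -0.026 over all tested genes. Library size alone in place of TMM moved the median of all tested genes to 0.18 in this comparison, and in that setting 3 of the 9 were called, *Fos* and *Fosl2* higher and *Jund* lower. With the GC and length trend removed the same 3 were called, beside 38% of all tested genes.

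*Fos* was at 106 ± 12.4 CPM in WT vehicle and at 178 ± 4.85 CPM in AMPKβ1-/- vehicle (SD, n = 3). The difference was 0.75 on the log2 scale (SE 0.087, adjusted p = 2.59e-05, edgeR). *Fosl2* was at 18.1 ± 1.68 and 25.9 ± 0.327 CPM, a change of 0.52 (SE 0.11, adjusted p = 0.00107). Both stayed in this direction and their call in all 21 alternative settings, where *Fos* ranged from 0.67 to 0.96 and *Fosl2* from 0.47 to 0.73. *Jund* was lower by the same test, at 197 ± 17.7 against 271 ± 17.01 CPM (log2 fold change -0.46, SE 0.098, adjusted p = 0.00102), and kept its call in all 21 settings with values of -0.54 to -0.17.

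The 4 other calls with vehicle were smaller and depended on the setting. *Jun* was at 82.0 ± 7.32 CPM in AMPKβ1-/- and 102 ± 8.75 CPM in WT BMDMs (log2 fold change -0.31, SE 0.086, adjusted p = 0.00623 from edgeR), but was -0.10 with library size alone and -0.096 after removal of the GC and length trend, with adjusted p values of 0.312 and 0.247. *Atf3* differed by -0.22 (SE 0.078, adjusted p = 0.0259), which was not called in 8 of 21 settings and was -0.0075 with library size alone. *Mafk* differed by -0.39 (SE 0.16, adjusted p = 0.0496), which was not called in 12 of 21 settings and was -0.22 without WT vehicle library 3, the library in which *Mafk* stood apart. *Junb* differed by -0.25 (SE 0.10, adjusted p = 0.0457), was not called in 14 of 21 settings and turned to 0.14, that is higher, after removal of the GC and length trend (adjusted p = 0.101). *Batf3* (0.28, 95% interval -0.72 to 1.28) and *Maff* (-0.45, 95% interval -0.97 to 0.069) were not called.

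**Figure D3:**
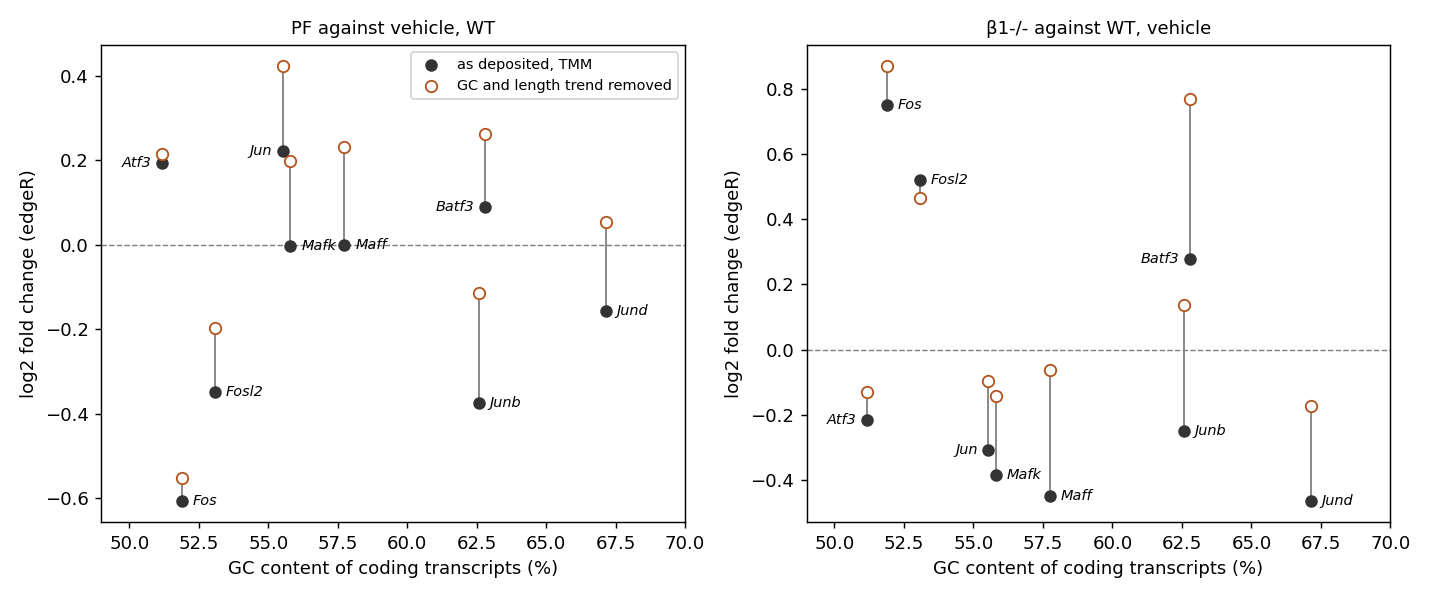
Log2 fold change of the 9 tested AP-1 genes against the GC content of their coding transcripts in percent, for PF against vehicle in WT (left) and for AMPKβ1-/- against WT with vehicle (right). Filled points are the edgeR values from the deposited counts and open points those with the GC and length trend of each library removed. In the right panel *Junb* moves from -0.25 to 0.14 and *Jun* from -0.31 to -0.096, while *Fos* stays at 0.75 or above.

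With PF in both genotypes, 5 of the 9 AP-1 genes were called between AMPKβ1-/- and WT BMDMs, beside 47.1% of all tested genes, of which 24.1% were higher and 22.9% lower in AMPKβ1-/- BMDMs. In 6 of the 9 the groups did not overlap, as in 59.9% of all tested genes. This comparison shares no library with that of the vehicle groups. *Fos* was higher by 1.43 (SE 0.088, adjusted p = 7.56e-08 from edgeR), at 188 ± 11.3 against 69.7 ± 3.31 CPM (SD, n = 3), and was the only AP-1 gene past a log2 fold change of 0.8, which 14.3% of all tested genes passed. *Fosl2* was higher by 0.76 (SE 0.11, adjusted p = 0.000106), at 24.02 ± 2.03 against 14.2 ± 1.23 CPM. *Jun* was lower by 0.50 on the log2 scale, at 83.8 ± 2.20 against 118 ± 5.34 CPM (adjusted p = 0.000319), and *Atf3* by 0.41, at 376 ± 23.96 against 498 ± 47.2 CPM (adjusted p = 0.000777). These 4 calls held in all 21 alternative settings. *Mafk* differed by -0.55 (SE 0.16, adjusted p = 0.0118) and lost its call without WT PF library 1 (-0.33, adjusted p = 0.056), without AMPKβ1-/- PF library 3 and with library size alone. *Jund* (-0.23, adjusted p = 0.0645), *Junb* (0.14, adjusted p = 0.259), *Batf3* (0.50, adjusted p = 0.364) and *Maff* (0.062, adjusted p = 0.845) were not called. After removal of the GC and length trend *Junb* was called higher (0.28, adjusted p = 0.00177) and *Jund* lower (-0.16, adjusted p = 0.0235), and leaving out a single WT PF library also brought a call, library 1 for *Junb* (0.28) and library 3 for *Jund* (-0.30). With library size alone *Junb* was called higher as well (0.30, adjusted p = 0.0184).

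Because *Fos* and *Jun* moved apart in WT BMDMs with PF and between the genotypes, their counts were also compared within each library, where no scaling between libraries is needed. The pair was chosen after its values were seen, and the ratio is given as a description. The log2 ratio of *Fos* to *Jun* counts was -0.033, 0.13 and 0.083 in WT vehicle and -0.89, -0.69 and -0.72 in WT PF. In AMPKβ1-/- BMDMs it was 0.93, 1.22 and 1.22 with vehicle and 1.04, 1.20 and 1.25 with PF. *Jun* counts thus exceeded *Fos* counts in every WT PF library, both were nearly equal in WT vehicle libraries, and *Fos* counts were the higher ones in every AMPKβ1-/- library. The groups with and without PF did not overlap in WT and overlapped in AMPKβ1-/- BMDMs. The ratio of *Fos* to *Junb* counts was nearer between the WT groups, with -1.81 ± 0.18 for vehicle and -2.02 ± 0.26 for PF, and was -0.81 ± 0.050 and -0.75 ± 0.11 in the AMPKβ1-/- groups (log2, SD, n = 3). These ratios still carry the GC and length trend of each library, which was not removed from them. *Junb* holds 62.6% GC, *Jun* 55.5% and *Fos* 51.9%, so the trend weighs more on the ratio to *Junb*.

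**Figure D4:**
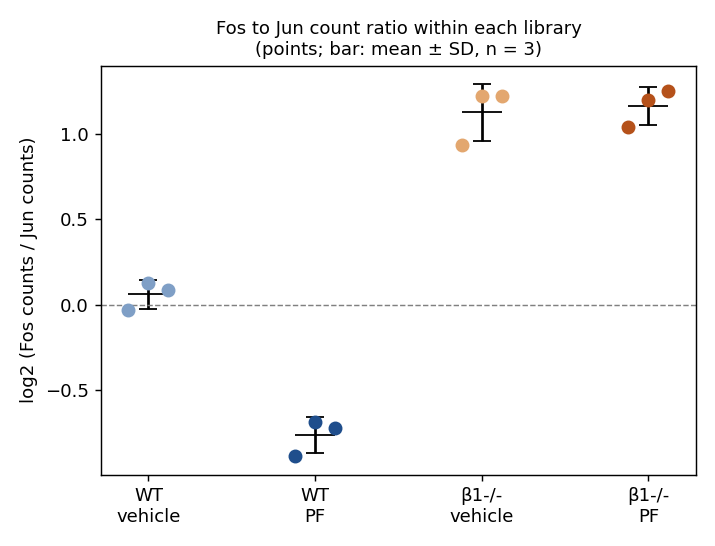
Log2 ratio of *Fos* to *Jun* counts in each library, in the 4 groups. Points are libraries and bars the mean ± SD of 3. WT PF libraries lie between -0.89 and -0.69, WT vehicle libraries around 0, and all AMPKβ1-/- libraries above 0.9.

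The genes whose profile over the 12 libraries was most like that of *Fos* were sought among 7832 other tested genes with a mean of at least 10 CPM, by the root mean square difference of centred log2 CPM. For *Fos*, whose own SD over the libraries was 0.62, they were *Nfkbiz*, which encodes the nuclear IκB protein IκBζ (0.13), *Ptger4*, the prostaglandin E2 receptor EP4 (0.15), and the chemokine gene *Cxcl14* (0.17). With PF in WT these 3 had log2 fold changes of -0.46, -0.37 and -0.65, and for AMPKβ1-/- against WT with vehicle 0.76, 0.89 and 0.81, which the choice by likeness largely fixes. For *Jun*, with an SD of 0.24, they were *B4galt7*, *Aopep* and *Gpr157* (0.069 to 0.078), and for *Atf3*, with an SD of 0.19, *Tmem189*, *Wsb2* and *Saraf* (0.066 to 0.068). These libraries share genotype, treatment and GC slope, and the likeness is a description over 12 libraries.

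The genes around AP-1 were described through 6 lists. Other bZIP factors and AP-1 partners, such as *Batf*, *Jdp2* and *Atf2*, gave 0 calls among 13 tested genes with PF in WT, beside 15.9% of all tested genes, with a median log2 fold change of -0.11. Near the threshold lay *Jdp2* (-0.55, adjusted p = 0.05 from edgeR) and the NRF2 gene *Nfe2l2* (0.41, adjusted p = 0.0537). DESeq2 called 1 of the 13 higher, beside 19.1% of all tested genes. With at least 10 counts in every library 1 of 12 was called lower, beside 17.6%. With the GC and length trend removed 0 were called, beside 7.58%. Of 10 regulators of FOS and JUN transcription, 2 fell with PF in WT, which is near the 15.9% called among all tested genes. These were *Elk3*, a ternary complex factor that acts with SRF (-0.43, adjusted p = 0.00743 from edgeR), and *Mrtfa*, an actin-regulated coactivator of SRF (-0.32, adjusted p = 0.0235). *Elk3* fell in all settings, whereas *Mrtfa* was -0.039 and not called with the GC and length trend removed. *Srf* itself and the other members of this list were not called.

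Among 12 other immediate early genes 4 were called lower and 0 higher with PF in WT, beside 8.95% of all tested genes lower and 6.99% higher. The higher calls depended on the setting. With the GC and length trend removed 3 were called lower and 1 higher, beside 7.58% of all tested genes. The median log2 fold change of the 12 genes moved from -0.22 to -0.020. DESeq2 called 4 lower and 2 higher, beside 19.1% of all tested genes. *Nr4a1*, the orphan nuclear receptor Nur77, went from 12.3 ± 0.0269 to 5.94 ± 1.121 CPM (SD, n = 3). It fell by 1.05 on the log2 scale (SE 0.16, adjusted p = 0.00149, edgeR). The antiproliferative gene *Btg2* changed by -0.54 (adjusted p = 0.00187), and *Klf2*, a factor known for holding back macrophage activation, by -0.43 (adjusted p = 0.011). *Nr4a1* and *Btg2* were lower and called in all settings, while *Klf2* was -0.17 (adjusted p = 0.22) with the GC and length trend removed. In AMPKβ1-/- BMDMs *Nr4a1* had a PF response of -0.13 and *Btg2* one of 0.0026, with adjusted p values of 0.982 and 0.997, and neither interaction was called by edgeR with the counts as deposited. With the GC and length trend removed both interactions were called, at -0.75 (adjusted p = 0.0399) for *Nr4a1* and -0.57 (adjusted p = 0.00947) for *Btg2*. Both were also called by DESeq2 on the same counts (adjusted p = 0.0235 and 0.0105) and by edgeR without WT PF library 1 (adjusted p = 0.0272 and 0.0433). Counting the main fit, each interaction was thus called in only 3 of 21 settings. Adjusted p values went up to 0.23 for *Nr4a1* and 0.198 for *Btg2*, while the values stayed at -1.04 to -0.75 and -0.60 to -0.48.

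Of 18 genes of the MAP kinase cascade, which drives the transcription and phosphorylation of FOS and JUN proteins, 3 rose and 4 fell with PF in WT, beside 6.99% of all tested genes called higher and 8.95% lower. *Mapk14*, the kinase p38α, fell by 0.33 on the log2 scale (adjusted p = 0.00587 from edgeR). *Mapk3*, the kinase ERK1, fell by 0.30 (adjusted p = 0.0262), and *Map3k7*, the kinase TAK1, rose by 0.60 (adjusted p = 0.0222). With the GC and length trend removed 1 of the 18 was called, *Mapk14* at -0.21 (adjusted p = 0.0147), beside 7.58% of all tested genes. Of 13 genes of AP-1 feedback and turnover, 1 fell and 1 rose, which is near the 15.9% called among all tested genes. The phosphatase gene *Dusp1*, which switches off p38 and JNK and is itself an early response gene, fell by 0.46 (adjusted p = 0.0162), and *Dusp4*, a phosphatase of ERK and JNK, rose by 0.35 (adjusted p = 0.019). Both kept their direction with the GC and length trend removed, at -0.41 and 0.56. In that setting alone the *Dusp4* interaction was called (0.43, adjusted p = 0.0453 from edgeR), beside 1.62% of all tested genes. Counting the main fit, the PF response in WT was called in 17 of 22 settings for *Dusp1* and in 19 of 22 for *Dusp4*. The adjusted p values went up to 0.0795 and 0.0747, and the fit to the WT libraries alone called neither.

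Of 14 tested genes known as AP-1 targets, 4 rose and 1 fell with PF in WT, beside 6.99% of all tested genes called higher and 8.95% lower, with a median log2 fold change of 0.025. The elastase gene *Mmp12* rose by 1.05 (SE 0.16, adjusted p = 0.00129 from edgeR), from 12.01 ± 0.665 to 24.8 ± 5.83 CPM (SD, n = 3), and *Plau*, the urokinase gene, rose by 0.68 (adjusted p = 0.00259). The collagenase gene *Mmp13* rose by 1.38 (adjusted p = 0.0216), at levels under 3 CPM. *Mmp12* and *Plau* were higher and called in all settings, and *Mmp13* was not called with the GC and length trend removed (0.96, adjusted p = 0.0845). The gene that fell was that of the gelatinase *Mmp9*, named here after its values were seen, with -1.13 (adjusted p = 0.0348) at under 3 CPM in every WT library, and it was not called with the GC and length trend removed (-0.91, adjusted p = 0.0882). Without AMPKβ1 the PF responses of *Mmp12*, *Plau* and *Mmp13* were 0.36, 0.41 and 0.48, and none was called. For *Mmp12* and *Plau* every PF library there still lay above every vehicle library, with unadjusted p of 0.029 and 0.00407 from edgeR. The *Mmp13* groups overlapped, and those of 14.5% of all tested genes did not. The interactions were 0.68, 0.27 and 0.90 in the same order and were not called. A missing call thus did not show that these responses were absent in AMPKβ1-/- BMDMs. In that genotype, and for the interaction, edgeR called 0 genes of the 6 lists with the counts as deposited, beside 0.0554% and 0.416% of all tested genes. DESeq2 called 4 interactions, all with the lower response in WT, beside 1.76% of all tested genes (*Nr4a1*, *Btg2*, *Klf2* and *Mapk14*).

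Between the genotypes with vehicle, 7 of 13 bZIP partners, 7 of 10 transcription regulators, 16 of 18 MAP kinase genes, 6 of 13 feedback genes, 7 of 12 other immediate early genes and 6 of 14 AP-1 targets were called, which is to be read beside 59.7% of all tested genes. Higher in AMPKβ1-/- BMDMs were *Atf2* (1.09), the NRF2 antagonist *Bach1* (0.94), *Creb1* (1.23), *Mef2a* (1.69) and the ubiquitin ligase genes *Cop1* (1.06) and *Itch* (1.17), whose products mark c-Jun or JunB for degradation. Lower were *Batf2* (-1.0001), *Map2k2* (-0.53), *Mapk3* (-0.52) and *Plau* (-0.95), all log2 fold changes with an adjusted p below 0.05 from edgeR. By the same test *Map3k7* (1.08), *Klf6* (0.85), *Cd44* (0.45) and *Mmp13* (1.31) were higher, and *Klf2* (-0.56), *Mrtfa* (-0.38) and *Ier2* (-0.33) lower. Many of these values depended on the GC and length trend. With it removed *Klf6* turned to -0.27 and was called lower (adjusted p = 0.0377), and *Ier2* turned to 0.087 and was not called. *Atf2* (0.036), *Itch* (-0.0031), *Cop1* (0.26), *Map3k7* (0.17), *Cd44* (0.10), *Mmp13* (0.26), *Mapk3* (-0.11), *Map2k2* (-0.088) and *Klf2* (-0.17) were not called in that setting either. *Bach1* (0.33), *Creb1* (0.78), *Mef2a* (1.25), *Batf2* (-0.59), *Plau* (-1.16) and *Mrtfa* (-0.15) stayed called in the same direction. *Dusp1*, which fell with *Fos* after PF in WT, was higher with *Fos* in AMPKβ1-/- vehicle (0.54, adjusted p = 0.000612) and remained so in all settings.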

How the data were processed

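Trim Galore (trimming) and Salmon (transcript quantification) are the tools the authors name, and the deposited values are estimated counts per gene (expected counts, given as whole numbers, not normalized). The genome build, the Salmon version and options and the summing to genes are not given in the sources used here. The directional kit is named in the labels, but the strand setting is not. Columns were assigned to groups by their names, and their numbers 1 to 3 serve as library names.

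Tests were run with edgeR 4.0.16 under R 4.3.3 (TMM, filterByExpr by group, robust quasi-likelihood test, 4 group means over 12 libraries, Benjamini-Hochberg adjustment over 10822 genes). SE are approximate (log2 fold change over the root of F). The 95% intervals use the t distribution with edgeR's degrees of freedom. Library totals were 8935609 to 14358180 counts, with a median of 10963566.5, and 3 counts equal 0.196 to 0.321 CPM. The counting error of a single library is 1.89% to 3.58% for *Fos* and 20.4% to 44.7% for *Batf3*. DESeq2 1.42.0, limma 3.58.1 (voom) and other scalings, filters and sets of libraries were alternatives. GENCODE M21 (GRCm38) gave positions, GC content and length, with 12703 genes matched on the current symbol, 4 on a former one and 253 unmatched. The GC and length trend of each library (splines of 5 degrees of freedom) entered as an offset, with 98.5% of the tested genes covered. Promoter sequences are from RefSeq (GRCm38.p6), with a window for all 10 genes. The scripts were tested on simulated data.

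All 10 AP-1 genes are named. Of each list, up to 3 called genes with the smallest p are named in the WT PF comparison, the interaction and the vehicle genotype comparison, and in addition a few members as examples. The AP-1 genes, lists and tests were chosen with earlier results of these data known. Protein sequences were not used here.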

Additional observations from a re-analysis of the deposited data

Results flagged for a closer look

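The PF response of *Fos* differed between the genotypes by the test of the difference itself. *Fos* fell by 0.61 on the log2 scale in WT BMDMs and had a response of 0.074 in AMPKβ1-/- BMDMs, and the WT response minus the AMPKβ1-/- response was -0.68 (SE 0.12, adjusted p = 0.0261 from edgeR). *Fos* was lower with PF than in every vehicle library in 3 of 3 WT libraries, while the AMPKβ1-/- ranges overlapped. The adjusted p of the difference ranged from 0.000225 to 0.0985 over 20 alternative settings, and its value from -0.76 to -0.60.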

How the results depend on the processing

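Of 929 values of single AP-1 genes under an alternative setting, 825 kept their direction and their side of the threshold, 53 lost a call, 15 gained one and 36 changed sign. With library size alone 4 AP-1 genes were called with PF in WT (*Fos*, *Junb*, *Jun* and *Atf3*), 0 for the interaction and 3 between the vehicle groups, beside 15.1%, 0.471% and 54.5% of all tested genes. With the GC and length trend removed, 2 were called for the interaction (*Fos* and *Jun*) and 3 between the vehicle groups, beside 1.62% and 38%. With PF in WT that setting called *Fos* lower and *Jun* and *Atf3* higher, beside 7.58% of all tested genes. The fit to the libraries of the comparison alone left 1 call with PF in WT, beside 4%. A log2 fold change past 0.8 was met by 0 AP-1 genes with PF in WT, for the interaction and between the vehicle groups, and by 1 between the PF groups. Leaving out 1 library gave 1 to 3 calls with PF in WT, 0 in AMPKβ1-/- BMDMs, 0 to 2 for the interaction, 4 to 7 between the vehicle groups and 4 to 6 between the PF groups. Over all tested genes the same fits called 3.17% to 29.7%, 0 to 0.165%, 0.0458% to 2.6%, 48.4% to 60.9% and 35.8% to 50%. The lowest count between the vehicle groups came without WT vehicle library 3 or AMPKβ1-/- vehicle library 2 or 3. The cause of these changes was not tested.

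The 36 changes of sign fell among the following values. With PF in WT, *Maff* became 0.012 with DESeq2's size factors, 0.080 with library size alone, 0.010 with no filter, 0.0097 with at least 10 counts in every library, 0.011 with DESeq2, 0.0055 with limma-voom, 0.011 with the 6 libraries alone and 0.23 without the GC and length trend, and -0.14 to 0.078 without single libraries. In the same comparison *Mafk* became 0.014, 0.071, 0.0093, 0.0068, 0.014, 0.013 and 0.20 in these settings without limma-voom, and -0.22 to 0.16 without single libraries, and *Jund* became 0.054 without the GC and length trend. Without single libraries *Batf3* was -0.35 to 0.34 with PF in WT, -0.87 to 0.025 for the interaction and -0.37 to 0.53 between the vehicle groups. With PF in AMPKβ1-/- BMDMs *Jun* was -0.0060 to 0.11, *Junb* -0.047 to 0.096 and *Atf3* -0.051 to 0.035 without single libraries, and *Atf3* -0.0010 with the 6 libraries alone. *Mafk* was -0.053 to 0.33 for the interaction without single libraries, and *Junb* 0.14 between the vehicle groups without the GC and length trend.

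The labels give the groups no shared replicate numbers, and whether the column numbers 1 to 3 pair the libraries is not known. The correlation of deviations between like-numbered libraries lay between -0.18 and 0.32, and in 6 of 18 pairs over 0.1. It cannot decide this, since unlike-numbered libraries were not set beside it. A fit with these numbers as a replicate block called 3 AP-1 genes with PF in WT, the third being *Fosl2* (-0.35, adjusted p = 0.0416), and 6 between the vehicle groups, without *Junb*, beside 18.3% and 59.6% of all tested genes. Over all genes, library size alone moved the higher calls between the vehicle groups to 4296 of 5896, against 3216 of 6465, and with PF in WT to 1045 of 1632, against 756 of 1725. The fit to the 6 WT libraries called 419 genes, and that without the GC and length trend 820. Depth limits *Fosb*, *Batf3* and *Maff*, whose counts stayed under 50 in every library.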

Other observations

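The counts of *Fosl2* were also set against those of *Jun* within each library, a ratio that needs no scaling between libraries and was looked at after the values were seen. The GC and length trend of each library was not removed from it. The log2 ratio was -2.48, -2.51 and -2.48 in WT vehicle, -3.28, -3.01 and -2.91 in WT PF, -1.79, -1.61 and -1.57 in AMPKβ1-/- vehicle and -1.95, -1.79 and -1.67 in AMPKβ1-/- PF. The WT groups did not overlap with each other or with the AMPKβ1-/- groups, and the AMPKβ1-/- groups overlapped.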
